A study of Mus musculus with 16 samples.

Results

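*Baiap2l2*, *Actr3b* and *Chst2* are 3 of the 55385 gene symbols in a table of RNA-Seq read counts from CD11b+ brain cells of 4 mouse genotypes. They were chosen by symbol because their transcripts had been seen to rise strongly in mice with the 5xFAD transgenes, so that rise is described below without a test. All 3 passed the filter on low counts, as did 14513 symbols in all. In mice without the transgenes *Baiap2l2* and *Actr3b* were close to 0, while *Chst2* held 15 to 20 reads in each WT library. A gene that passes such a filter only through the groups in which it is high had to differ between groups.

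The 16 libraries came from cells pulled down with beads against CD11b, a surface integrin chain of microglia and other myeloid cells, from brains of mice aged 20 weeks after the meninges and choroid plexus had been taken off. There were 4 libraries of each of 4 groups. WT mice carried intact *Card9* and no transgene, and *Card9*-/- mice had a germline deletion of *Card9*, the gene of an adaptor protein downstream of C-type lectin receptors. The 5xFAD mice carried human transgenes with mutations of familial Alzheimer's disease, driven in neurons by the Thy1 promoter, and the *Card9*-/-5xFAD mice carried the transgenes together with the deletion. The deletion was present in every cell, so it was not limited to the sorted cells. The labels do not say whether each library is a separate animal, and p-values then measure only the spread between these libraries.

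The libraries held 2970148 to 19333325 counts on genes and were shallowest in *Card9*-/- replicate 4 (3229322) and *Card9*-/-5xFAD replicate 4 (2970148). *P2ry12* and *Tmem119*, which define microglia, were present in every library, at 1760 to 6310 and 527 to 4130 CPM (reads relative to the library's total, scaled by the trimmed mean of M values). *Card9* itself was counted at 13.6 to 51.3 CPM in WT, 16.7 to 34.8 in *Card9*-/-, 15.6 to 33.5 in 5xFAD and 9.73 to 33.7 in *Card9*-/-5xFAD libraries, so its transcript counts did not separate the labels, and every statement on *Card9* genotype rests on the labels alone. The first principal component of log2 CPM held 46.8% of the variance and set 4 libraries, 1 of each group, apart at scores above 50 (WT replicate 1, *Card9*-/- replicate 4, 5xFAD replicate 1 and *Card9*-/-5xFAD replicate 4). Values without those 4 are given beside the lists and relations examined below.

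The 3 genes encode proteins of unrelated kinds. BAIAP2L2 belongs to the inverse BAR (I-BAR) proteins, which bind and bend the plasma membrane outward and link it to actin, and it is best known from epithelial cells and from the stereocilia of hair cells. ACTR3B is a close relative of ACTR3 (Arp3), a subunit of the Arp2/3 complex that starts new actin branches in lamellipodia and phagocytic cups. CHST2 is a Golgi enzyme that adds sulfate to carbon 6 of N-acetylglucosamine, as in keratan sulfate and in sulfated ligands of L-selectin. Microglia that gather at amyloid plaques take on a state called disease-associated microglia (DAM), in which lysosomal, lipid and surface receptor genes are raised.

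On the GRCm38 assembly, in the GENCODE M21 annotation, *Baiap2l2* lies on the minus strand at chr15:79258195-79285537, *Actr3b* on the plus strand at chr5:25759997-25850688 and *Chst2* on the minus strand at chr9:95399292-95406722. No other annotated gene overlapped any of them. Because *Actr3b* and *Actr3* are close copies, the start of their coding sequences in that annotation is set out here to show how far their reads can be told apart. Capitals mark the 29 of the first 120 coding bases at which they differ.
Actr3b: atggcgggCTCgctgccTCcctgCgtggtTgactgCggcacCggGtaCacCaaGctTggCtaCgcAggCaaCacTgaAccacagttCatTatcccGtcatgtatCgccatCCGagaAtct
Actr3: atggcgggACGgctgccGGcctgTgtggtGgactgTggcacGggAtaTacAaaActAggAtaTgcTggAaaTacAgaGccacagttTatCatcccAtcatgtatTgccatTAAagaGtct

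Over the whole coding sequence, 957 of 1254 bases were the same in *Actr3b* and *Actr3* (76.3%), and the longest run they shared was 20 bases (coding bases 640 to 659 of *Actr3b*). That run reads ggaatccctcctgagcagtc. No 50-base stretch of the *Actr3b* transcripts (0 of 2421) or of the *Baiap2l2* transcripts (0 of 2819) occurred in a transcript of another gene, and 22 of 7241 in *Chst2* did (0.304%). *Baiap2l2* shared at most 17 consecutive coding bases with its relatives *Baiap2*, *Baiap2l1* and *Mtss1*, and *Chst2* at most 23 with *Chst1*, *Chst3*, *Chst4*, *Chst5* and *Chst7*.

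A RefSeq promoter of 300 bases (250 before the start and 50 after it, GRCm38.p6) was at hand for *Chst2*, at chr9:95407221-95407520 on the minus strand. This window lies wholly upstream of the GENCODE span of *Chst2*, whose start is at base 95406722. The RefSeq and GENCODE starts therefore differ, and the values below hold for the RefSeq start. The window is printed because 73.0% of its bases were G or C, where the median promoter had 52.7%. Capitals mark its 34 CpG dinucleotides, against a median of 7 over 32851 promoters, of which 92.3% held fewer.
Chst2: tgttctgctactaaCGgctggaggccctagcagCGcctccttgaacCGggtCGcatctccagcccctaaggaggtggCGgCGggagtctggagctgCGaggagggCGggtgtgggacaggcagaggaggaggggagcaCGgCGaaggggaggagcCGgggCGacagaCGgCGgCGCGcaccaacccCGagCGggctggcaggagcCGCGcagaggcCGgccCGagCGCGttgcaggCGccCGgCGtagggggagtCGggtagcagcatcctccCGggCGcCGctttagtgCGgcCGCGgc

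The letters GAGGAA (core site of PU.1), CACGTG (E-box), TGANTCA (AP-1), TATAAA and CCAAT were searched on both strands of this window, and none was found. The bases around the GENCODE start were not searched. They occurred in 28.3%, 7.15%, 7.81%, 13.6% and 37.4% of all promoters, respectively.

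*Baiap2l2*, which couples curved membrane to actin, was nearly silent without the transgenes. Its level in WT libraries was 0.704, 0.428, 0.331 and 0.535 CPM in replicates 1 to 4, or 3 to 5 reads each. In *Card9*-/- libraries it was 0.12, 0.124, 0.356 and 0 CPM, or 0 to 6 reads each. In 5xFAD libraries it was 45.8, 72.7, 54.9 and 71.1 CPM, and in *Card9*-/-5xFAD libraries 62.2, 60.4, 47.8 and 30.4 CPM. Every transgenic library stood above every library without the transgenes, and the lowest of the first was 43.2-fold the highest of the second. Such a gap, here and for the other genes below, belongs to the rise by which the 3 genes were chosen. The share of all genes that separate all transgenic libraries from all others was not counted. Group means were 0.499 ± 0.16 CPM in WT, 0.15 ± 0.149 in *Card9*-/-, 61.1 ± 13 in 5xFAD and 50.2 ± 14.6 in *Card9*-/-5xFAD (SD, n = 4), and the levels of the 5xFAD and *Card9*-/-5xFAD libraries overlapped, as did those of WT and *Card9*-/-.

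*Actr3b*, the second Arp3 gene, was also near 0 without the transgenes. It stood at 0.352, 0.342, 0.772 and 0.214 CPM in WT and at 0.6, 0.414, 0.593 and 0.981 CPM in *Card9*-/- libraries, from 2 to 10 reads each. In 5xFAD libraries it was 17.4, 28.0, 18.3 and 42.9 CPM, and in *Card9*-/-5xFAD libraries 53.8, 41.0, 21.0 and 22.8 CPM. The groups with and without transgenes did not overlap, and their nearest libraries differed by 17.8-fold. The means were 0.42 ± 0.243 (WT), 0.647 ± 0.239 (*Card9*-/-), 26.7 ± 11.8 (5xFAD) and 34.6 ± 15.6 CPM (*Card9*-/-5xFAD, SD, n = 4). *Actr3b* spread most of the 3 among the 8 transgenic libraries, over a 3.08-fold range, with *Card9*-/-5xFAD replicate 1 highest and 5xFAD replicate 1 lowest.

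*Chst2*, the N-acetylglucosamine sulfotransferase, was low but measurable without the transgenes. WT libraries held 2.64, 1.71, 1.99 and 1.93 CPM (15 to 20 reads) and *Card9*-/- libraries 0.721, 1.99, 1.13 and 1.31 CPM (4 to 48 reads). It reached 61.4, 34.8, 49.5 and 49.3 CPM in 5xFAD and 66.9, 46.7, 33.4 and 22.8 CPM in *Card9*-/-5xFAD libraries. Again no transgenic library overlapped the others, and the nearest differed by 8.64-fold. The means were 2.07 ± 0.401 (WT), 1.29 ± 0.528 (*Card9*-/-), 48.8 ± 10.9 (5xFAD) and 42.4 ± 19.0 CPM (*Card9*-/-5xFAD, SD, n = 4).

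**Figure D1:**
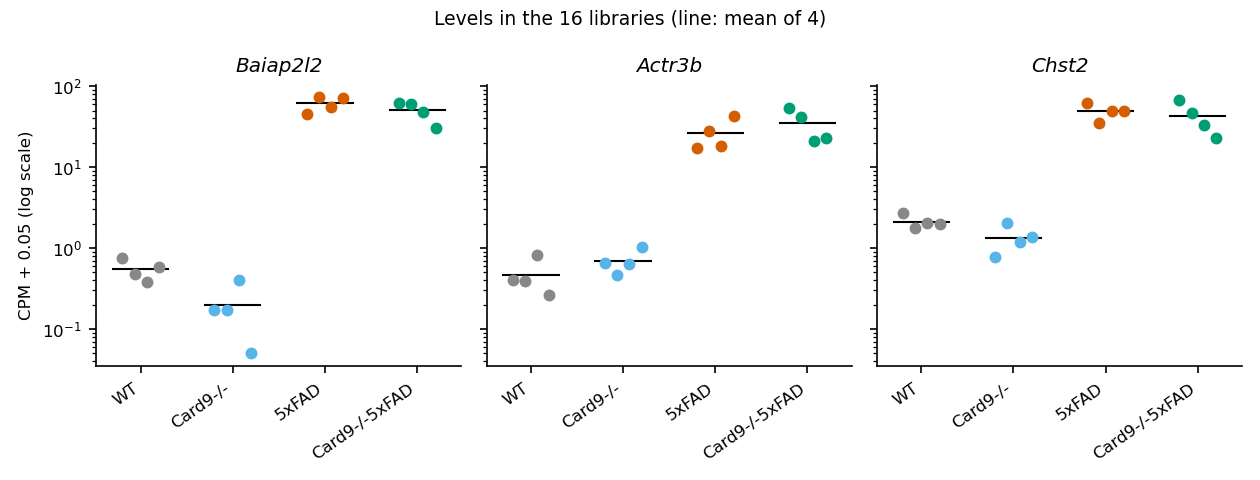
CPM plus 0.05 on a log axis for *Baiap2l2*, *Actr3b* and *Chst2* in each library (points, replicates 1 to 4 from left to right) of the 4 groups, with the group mean as a line. In each panel the 8 transgenic libraries lie above the 8 others, with the nearest libraries 43.2-, 17.8- and 8.64-fold apart.

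As a description of the choice, the fitted change between 5xFAD and WT on the log2 scale was 6.94 ± 0.44 (SE) for *Baiap2l2*, 5.94 ± 0.51 for *Actr3b* and 4.57 ± 0.39 for *Chst2*. These were the sixth, 14th and 40th largest rises of the 14513 genes, where the median gene changed by -0.15. Between *Card9*-/-5xFAD and *Card9*-/- the changes were 7.97 ± 0.47, 5.86 ± 0.5 and 5.0 ± 0.41, ranked 4, 18 and 27. Of all genes, 2.09% passed between 5xFAD and WT at a false discovery rate (FDR) under 0.1 (1.57% higher and 0.524% lower) and 1.97% between *Card9*-/-5xFAD and *Card9*-/- (1.49% higher and 0.482% lower), while 4.35% and 3.53% did not overlap between those groups and were higher with the transgenes. Because so few reads stood behind the lower groups, the pooled reads give the counting error, which is the least error there can be. The 1659 *Baiap2l2* reads of 5xFAD against 17 of WT gave a ratio of 130-fold with an exact 95% interval of 81.1 to 224, and the 1510 of *Card9*-/-5xFAD against 10 of *Card9*-/- gave 292-fold (158 to 609). For *Actr3b* the pooled ratios were 65.5 (39.5 to 118) and 74.6 (51.3 to 113), and for *Chst2* 24.4 (19.2 to 31.4) and 33.5 (26.6 to 42.7). In bulk libraries, more cells that carry a transcript and more transcript per cell cannot be told apart.

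Per length of exon, all 3 remained modest in the transgenic libraries. The mean over those 8 libraries was 20.4 CPM per kb for *Baiap2l2*, 12.6 for *Actr3b* and 6.22 for *Chst2*, above 80.2%, 72.6% and 57.7% of the 13539 tested genes with a known length. *Cst7*, a cystatin and one of the genes by which DAM are known, stood at 3030 CPM per kb.

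The next comparison asked whether the level reached with the transgenes depended on *Card9*. No difference passed the test in any of the 3 genes. *Baiap2l2* differed between *Card9*-/-5xFAD and 5xFAD by -0.28 ± 0.32 on the log2 scale (95% interval -0.95 to 0.39), *Actr3b* by 0.38 ± 0.39 (-0.43 to 1.2) and *Chst2* by -0.19 ± 0.43 (-1.11 to 0.73), each at an edgeR quasi-likelihood FDR of 0.993. In terms of fold, the intervals ran from 0.516 to 1.31, from 0.74 to 2.3 and from 0.462 to 1.65, so changes within these bounds could not be told from none at this spread. Exact two-sided permutation tests over the 70 assignments of 4 against 4 libraries gave p of 0.343, 0.457 and 0.457, where the smallest possible is 0.0286. The groups overlapped for all 3, as they did for all but 1.89% of genes. By edgeR 0 genes of all those tested passed (0.0%), with 366 (2.52%) at an unadjusted p under 0.05, and DESeq2 on all libraries called 2. *Card9*-/-5xFAD replicate 4, the shallowest library, was the lowest of the 8 for *Baiap2l2* and *Chst2*, and without the 4 libraries that stand apart the difference in *Chst2* was 0.13 ± 0.31 (FDR 0.926).

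Without the transgenes, *Baiap2l2* was lower in *Card9*-/- than in WT libraries by -1.31 ± 0.5 on the log2 scale (unadjusted p = 0.0191 in edgeR's quasi-likelihood test), which did not pass over all genes (FDR 0.97). The comparison rests on 10 against 17 reads, a pooled ratio of 0.401 with an exact 95% interval of 0.164 to 0.928, the 2 groups overlapped, and the exact permutation p was 0.0571. It ran from -2.01 without *Card9*-/- replicate 3 to -1.05 without *Card9*-/- replicate 2, and without the 4 libraries that stand apart it was -1.04 ± 0.53 (FDR 0.587). *Actr3b* differed by 0.46 ± 0.59 and *Chst2* by -0.63 ± 0.38 (FDR 0.97 for both). The groups overlapped for all 3, and 2.66% of all genes did not overlap. By edgeR 0 genes passed (0.0%), 597 (4.11%) had an unadjusted p under 0.05, and DESeq2 on all libraries called 5.

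The rise with the transgenes was set against *Card9* genotype by an interaction term. The rise of *Baiap2l2* was larger by 1.03 ± 0.58 log2 units in *Card9*-/- mice (95% interval -0.19 to 2.25), that of *Actr3b* by -0.08 ± 0.58 (-1.31 to 1.15) and that of *Chst2* by 0.43 ± 0.5 (-0.63 to 1.49), all at an FDR of 1.0. By edgeR 0 genes passed (0.0%), 78 (0.537%) had an unadjusted p under 0.05, and DESeq2 on all libraries called 1. The value for *Baiap2l2* ran from 0.77 without *Card9*-/- replicate 2 to 1.73 without *Card9*-/- replicate 3. The sign for *Actr3b* turned without the 4 libraries that stand apart (0.13 ± 0.77).

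**Figure D2:**
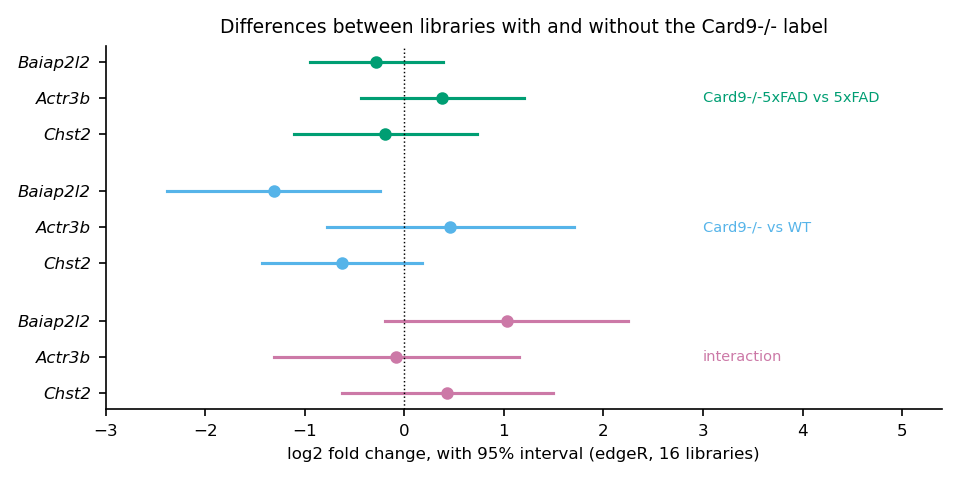
Log2 fold change (points) with 95% interval (lines) of *Baiap2l2*, *Actr3b* and *Chst2* between *Card9*-/-5xFAD and 5xFAD, between *Card9*-/- and WT, and in the interaction, from the edgeR fit of 16 libraries. All intervals cover 0 except that of *Baiap2l2* between *Card9*-/- and WT (-2.38 to -0.24), whose FDR was 0.97.

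The families of the 3 genes were then examined, leaving the 3 genes themselves out of every count. Calls are by edgeR on all libraries unless another fit is named, and those other fits called far more genes. Without the 4 libraries that stand apart, 5.0% of all genes rose and 2.98% fell in 5xFAD, and 10.4% rose and 6.27% fell in *Card9*-/-5xFAD. With the replicate number as a block within each *Card9* genotype these shares were 8.93%, 7.07%, 11.2% and 9.19%, and the list counts under both fits are read against them. Of the other I-BAR genes, none rose. *Mtss1*, an I-BAR protein that acts on dendritic spines and cilia, fell in 5xFAD by -1.22 ± 0.28 on the log2 scale (FDR 0.0375), from 68.9 to 118 CPM in WT to 33.9 to 54.4 CPM. Between *Card9*-/-5xFAD and *Card9*-/- its change was -1.02 ± 0.28 (FDR 0.103), which passed with the replicate number as a block within each *Card9* genotype (FDR 0.00975) and without the 4 libraries that stand apart (FDR 0.00432). *Baiap2* (IRSp53), the founding member, and *Baiap2l1* (IRTKS) changed by -0.15 ± 0.33 and -0.01 ± 0.38 in 5xFAD and by -0.04 ± 0.33 and 0.29 ± 0.38 in *Card9*-/-5xFAD, none of which passed (FDR 0.813 to 0.994), and the signs of *Baiap2l1* in 5xFAD and *Baiap2* in *Card9*-/-5xFAD turned with DESeq2 size factors (0.09 and 0.01). *Mtss2* held at most 7 reads in any library and was not tested. Per length of exon, *Baiap2l2* rose from the lowest of the 4 measurable members (0.183 ± 0.0586 CPM per kb in WT) to the highest (22.4 ± 4.76 in 5xFAD), against 1.57 ± 0.398, 2.64 ± 0.895 and 3.51 ± 0.863 CPM per kb of *Baiap2*, *Baiap2l1* and *Mtss1* in 5xFAD (SD, n = 4).

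Among 42 tested genes of other BAR domain proteins, 1 rose and 1 fell in 5xFAD, and 1 rose and 2 fell in *Card9*-/-5xFAD, with a median log2 change of -0.39 and -0.34, where all genes had -0.15 in both. *Pacsin1* (syndapin I), an F-BAR protein of endocytosis, rose by 2.31 ± 0.47 (FDR 0.0167) and by 2.16 ± 0.47 (FDR 0.0318). *Fchsd2*, an F-BAR protein that activates actin assembly at clathrin-coated pits, fell by -1.09 ± 0.26 (FDR 0.0492) and by -0.98 ± 0.26 (FDR 0.0934). *Acap1*, a BAR and Arf GTPase-activating protein, fell by -1.75 ± 0.46 in *Card9*-/-5xFAD (FDR 0.084) and changed by -0.95 ± 0.45 in 5xFAD (FDR 0.461). The call of *Acap1* was lost with 1 replicate block over all groups (FDR 0.114) and without both shallowest libraries (-1.34, FDR 0.17), and that of *Fchsd2* in *Card9*-/-5xFAD with that block (FDR 0.115). Without the 4 libraries that stand apart, 1 rose and 2 fell in 5xFAD and 1 rose and 5 fell in *Card9*-/-5xFAD, of 41 tested, where 2.98% and 6.27% of all genes fell. With the block within each *Card9* genotype 2 rose and 11 fell, and 2 rose and 12 fell, of 42, where 7.07% and 9.19% of all genes fell.

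Of 12 tested proteins of stereocilia and protrusion tips, the setting in which *Baiap2l2* is best known, none rose. *Eps8*, an actin capping and bundling protein that binds I-BAR proteins, fell in *Card9*-/-5xFAD by -1.37 ± 0.31 (FDR 0.0454) and changed by -0.73 ± 0.31 in 5xFAD (FDR 0.397), which passed with the replicate number as a block within each *Card9* genotype (FDR 0.0617). The list medians were -0.26 and -0.22, where all genes had -0.15. With the 4 libraries that stand apart left out, 1 gene fell in 5xFAD, where 2.98% of all genes did, while 2 fell in *Card9*-/-5xFAD, where 6.27% did, and with the block 2 fell in each (7.07% and 9.19%).

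The Arp2/3 complex was read as a whole beside *Actr3b*. By edgeR on all libraries none of its 9 other subunit genes passed in 5xFAD or in *Card9*-/-5xFAD, while DESeq2 called *Arpc3* (1.12, FDR 0.0142) and *Arpc5l* (0.77, FDR 0.0991) in *Card9*-/-5xFAD and edgeR with 1 replicate block over all groups called *Arpc3* there. The edgeR changes had medians of 0.42 and 0.46 on the log2 scale against -0.15 over all genes. *Actr3*, the first Arp3 gene, changed by -0.21 ± 0.52 and -0.1 ± 0.52, and *Actr2* (Arp2) by -0.16 ± 0.27 and 0.12 ± 0.27. *Arpc3* changed by 0.67 ± 0.3 (FDR 0.434) and 1.05 ± 0.3 (FDR 0.125), *Arpc2* by 0.54 ± 0.25 in each, *Arpc5l* by 0.59 ± 0.26 and 0.7 ± 0.26, and *Arpc1b* by 0.73 ± 0.47 and 0.59 ± 0.47. *Arpc1a*, *Arpc4* and *Arpc5* changed by 0.2 to 0.46. Without the 4 libraries that stand apart, *Arpc1b*, *Arpc2*, *Arpc3* and *Arpc5l* passed in *Card9*-/-5xFAD at changes of 0.63 to 0.93 (FDR 0.0584 to 0.062) and none in 5xFAD, in a fit where 10.4% and 5.0% of all genes rose. With the replicate number as a block within each *Card9* genotype, *Arpc3* rose by 1.06 ± 0.2 in *Card9*-/-5xFAD (FDR 0.00547), *Arpc2*, *Arpc3* and *Arpc5l* passed in both contrasts, and *Arpc1b* passed in 5xFAD (FDR 0.0414), where 11.2% and 8.93% of all genes rose in *Card9*-/-5xFAD and 5xFAD.

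*Actr3b* made up the smaller part of the Arp3 transcripts in every library, also where it rose. Per length of exon it held 0.129% to 0.611% of *Actr3* and *Actr3b* together in WT and 0.234% to 1.28% in *Card9*-/- libraries. In 5xFAD libraries the share was 22.7%, 15%, 11.8% and 18.5%, and in *Card9*-/-5xFAD libraries 19.6%, 15.4%, 18.9% and 33.3%, so *Actr3* held most of both genes' reads per length in every library. The largest share in each group was in the library that stands apart, and without those 4 it ran from 11.8% to 19.6% in the transgenic libraries. *Actr3* was 87.3 to 172 CPM in 5 libraries (those 4 and *Card9*-/-5xFAD replicate 3) and 261 to 429 CPM in the other 11.

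**Figure D3:**
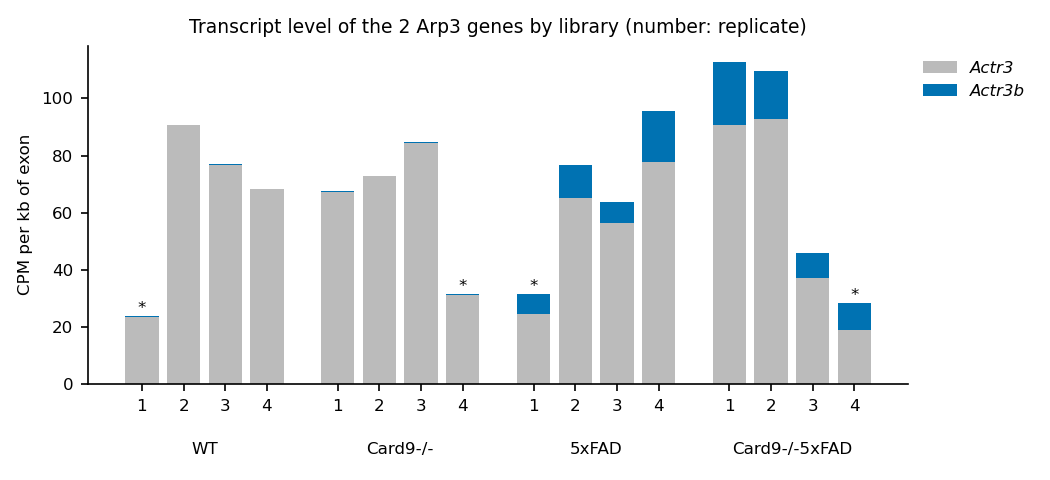
CPM per kb of exon of *Actr3* (grey) and *Actr3b* (blue), stacked, in each library, with the replicate number on the x axis and asterisks on the 4 libraries that stand apart. *Actr3b* adds 7.19 to 22.2 CPM per kb in the transgenic libraries and at most 0.405 in the others.

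Of 23 tested activators of the Arp2/3 complex, 1 rose in 5xFAD and none in *Card9*-/-5xFAD. It was *Wipf3*, a WASP-interacting protein, with 56 reads in the 5xFAD libraries against 2 in WT, a pooled ratio of 37.4 (exact 95% interval 9.88 to 316, FDR 0.0538). *Wipf3* passed the filter on low counts only through the transgenic libraries, so it had to differ between groups and its FDR is a description. In *Card9*-/-5xFAD it had 46 reads against 4 in *Card9*-/- (FDR 0.171), and it passed there without the 4 libraries that stand apart (FDR 0.00385) and with the block within each *Card9* genotype (FDR 0.0147). None of 12 tested inhibitors or branch disassembly factors passed in either contrast, with medians of 0.0 and 0.05. With that block 2 activators rose and 1 fell in 5xFAD and 3 rose and 1 fell in *Card9*-/-5xFAD, and 1 inhibitor or disassembly factor rose in 5xFAD. Under it 8.93% and 11.2% of all genes rose, and 7.07% and 9.19% fell. In each contrast 1 activator rose and 1 fell without the 4 libraries that stand apart. In that fit 5.0% and 10.4% of all genes rose, and 2.98% and 6.27% fell.

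Of 17 tested carbohydrate sulfotransferases other than *Chst2*, 3 rose and none fell in 5xFAD, and 2 rose and none fell in *Card9*-/-5xFAD. Of all genes, 1.57% and 1.49% rose. Both counts include *Chst3*, whose calls are only a description, as set out below. The other calls were *Chst11* and *Hs3st1* in 5xFAD and *Chst11* in *Card9*-/-5xFAD. *Chst3*, which adds sulfate to carbon 6 of N-acetylgalactosamine in chondroitin, went from 2 reads in WT to 40 in 5xFAD, a pooled ratio of 26.7 (exact 95% interval 6.93 to 228, FDR 0.00299), and from 3 reads in *Card9*-/- to 83 in *Card9*-/-5xFAD, a ratio of 53.4 (17.7 to 264, FDR 0.000449). It remained at 0.96 to 3.54 CPM in the transgenic libraries. *Chst3* passed the filter on low counts only through those libraries, so it had to differ between groups and its FDR values are a description. *Chst11*, the chondroitin 4-O-sulfotransferase, rose by 1.19 ± 0.27 (FDR 0.0312) and 1.53 ± 0.27 (FDR 0.00611), from 9.25 to 17.1 CPM without the transgenes to 23.7 to 49.4 CPM with them. *Hs3st1*, a heparan sulfate 3-O-sulfotransferase, rose by 2.96 ± 0.75 in 5xFAD (FDR 0.066) and changed by 2.23 ± 0.73 in *Card9*-/-5xFAD (FDR 0.185). The list median was -0.1 and -0.29. In each contrast 4 rose and 2 fell without the 4 libraries that stand apart, where 5.0% and 10.4% of all genes rose and 2.98% and 6.27% fell. With the block 5 rose and 3 fell, and 4 rose and 2 fell, where 8.93% and 11.2% of all genes rose and 7.07% and 9.19% fell. *Chst3* was among the risers in all of these counts.

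Among *Chst1*, *Chst4*, *Chst5* and *Chst7*, relatives of *Chst2* that sulfate galactose or N-acetylglucosamine at carbon 6, none passed as a rise. Identity to the *Chst2* coding sequence, with gaps counted, was 53.2% for *Chst7*, 49.4% for *Chst3*, 48.3% for *Chst4*, 45.5% for *Chst1* and 42.7% for *Chst5*. These sequences have unlike lengths (1185 to 1590 bases), and *Chst5* shared the longest run with *Chst2* (23 bases). The values therefore do not show whether these relatives are nearer to *Chst2* than *Chst3* is. *Chst7* changed by -1.08 ± 0.34 (FDR 0.189) and -0.87 ± 0.34 (FDR 0.283), from 82.7 ± 33.9 and 64.2 ± 11.2 CPM in WT and *Card9*-/- to 39.2 ± 12.7 and 35.1 ± 7.93 CPM in 5xFAD and *Card9*-/-5xFAD (SD, n = 4). Without the 4 libraries that stand apart it passed in both (FDR 0.0235 and 0.0284), and it also passed with the replicate number as a block within each *Card9* genotype (FDR 0.00553 and 0.011). *Chst1* changed by 0.29 ± 0.73 and 0.24 ± 0.73 (FDR 0.92 and 0.928). *Chst4* and *Chst5* had 0 reads in every library.

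**Figure D4:**
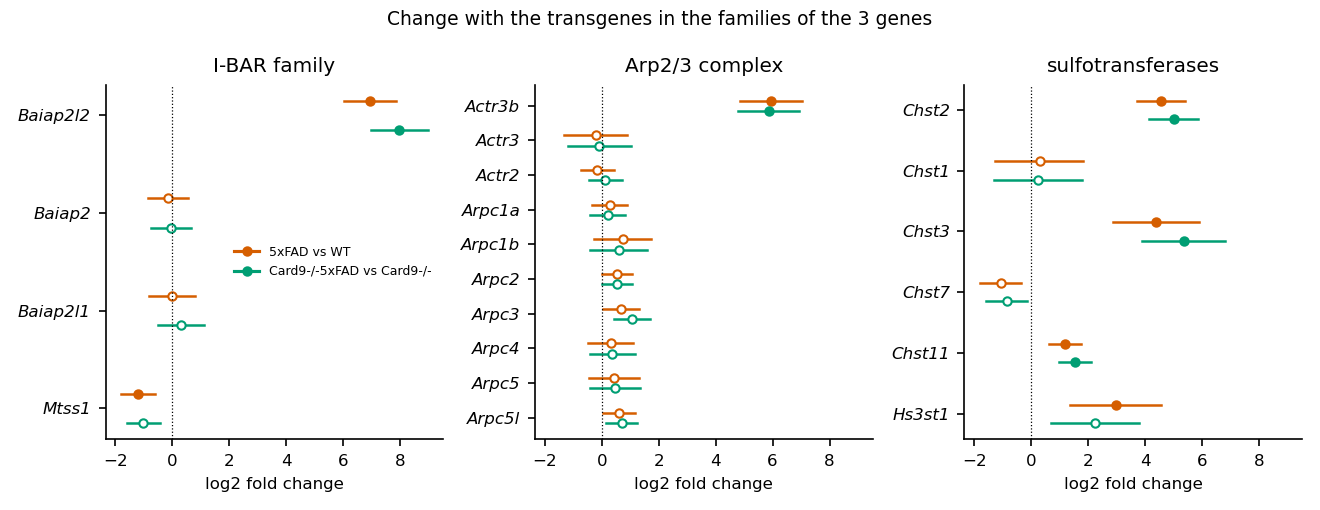
Log2 fold change (points) and 95% interval (lines) in 5xFAD against WT and in *Card9*-/-5xFAD against *Card9*-/- for the I-BAR family, the Arp2/3 complex and the named sulfotransferases. Filled points passed FDR 0.1 or belong to *Baiap2l2*, *Actr3b* and *Chst2*, which were chosen for these changes. The fitted values of *Chst3* rest on 2 and 3 reads in the lower groups, and apart from *Chst3* and *Hs3st1* no relative moved by more than 1.53 log2 units. *Chst3* passed the filter on low counts only through the transgenic libraries, so its filled points are a description.

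Further steps of sulfation were read the same way. Of 9 tested genes that supply the sulfate donor, *Slc26a11*, a sulfate and chloride transporter, fell by -1.87 ± 0.38 in 5xFAD (FDR 0.0166) and changed by -1.34 ± 0.37 in *Card9*-/-5xFAD (FDR 0.106), and no other passed. Of 16 glycosyltransferases of keratan sulfate and sialyl Lewis x chains, 2 rose in 5xFAD and 1 in *Card9*-/-5xFAD. *Gcnt2*, which branches poly-lactosamine chains, rose by 1.15 ± 0.24 (FDR 0.0202) and 1.05 ± 0.24 (FDR 0.0426). *B3gnt7*, which extends keratan sulfate chains, rose by 1.95 ± 0.52 in 5xFAD (FDR 0.0842) and changed by 1.45 ± 0.51 in *Card9*-/-5xFAD (FDR 0.229). The sulfatase list had 14 tested genes and also held the glycosidases *Glb1* and *Hexa*. On it *Sulf2*, which removes 6-O-sulfate from heparan sulfate, rose by 1.77 ± 0.37 in 5xFAD (FDR 0.0202) and changed by 1.34 ± 0.36 in *Card9*-/-5xFAD (FDR 0.102). With the replicate number as a block within each *Card9* genotype, *Slc26a11*, *B3gnt7*, *Hs3st1* and *Sulf2* also passed in *Card9*-/-5xFAD. Without the 4 libraries that stand apart, 3 genes of the sulfatase list rose and 1 fell in 5xFAD, and 4 rose and 1 fell in *Card9*-/-5xFAD, where 5.0% and 10.4% of all genes rose. The risers were *Glb1*, *Hexa* and *Sulf2* in both contrasts, with *Galns* in *Card9*-/-5xFAD. In that fit 2 glycosyltransferases rose and 1 fell in 5xFAD, 2 rose and 2 fell in *Card9*-/-5xFAD, and 1 donor gene fell in each. With the block, 4 genes of the sulfatase list rose and 1 fell, and 4 rose and 2 fell. The risers were *Galns*, *Glb1*, *Hexa* and *Sulf2* in both contrasts. Under it 2 glycosyltransferases rose and 2 fell, and 2 rose and 3 fell, and 1 and 3 donor genes fell. Of all genes, 8.93% and 11.2% rose and 7.07% and 9.19% fell with the block.

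For the DAM list, which holds none of the 3 genes, 23 of 36 genes rose in 5xFAD and 22 of 36 in *Card9*-/-5xFAD and none fell, with medians of 1.66 and 1.56, and without the 4 libraries that stand apart 33 and 34 rose, as 34 and 34 did with the block. None of 25 homeostatic microglia genes passed in either contrast with all libraries, and 1 fell in each without those 4. With the block 3 fell in 5xFAD, and 1 rose and 4 fell in *Card9*-/-5xFAD, where 7.07% and 9.19% of all genes fell. Over all genes, 304 passed in 5xFAD and 286 in *Card9*-/-5xFAD. These counts became 2322 and 2966 with the replicate number as a block within each *Card9* genotype, so a gene that missed the threshold here is not shown to be unmoved. No gene of any list passed in *Card9*-/-5xFAD against 5xFAD, in *Card9*-/- against WT or in the interaction.

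Markers of hair cells and neurons, among the other cells in which *Baiap2l2* and *Actr3b* are known, were scarce. The 8 hair cell and epithelial markers summed to 24.3 to 71.1 CPM without and 27.1 to 73.6 CPM with the transgenes, and *Pou4f3* and *Atoh1*, which define hair cells, had 0 reads in all 16 libraries. The 14 neuron markers summed to 8.07 to 56.3 CPM without and 3.88 to 19.6 CPM with the transgenes, and none of the 4 tested rose. The summed markers of oligodendrocytes (205 to 943 CPM), astrocytes (171 to 351 CPM) and neutrophils (493 to 6270 CPM) overlapped between groups, as did those of endothelial, B, T and NK cells and monocytes. Those of choroid plexus or ependymal cells, which are epithelial, were not scarce in every library. They overlapped too, at 14.7 to 2500 CPM without and 3.06 to 1340 CPM with the transgenes. Single markers did move, though *Gfap* and *Cspg4* passed the filter on low counts only through the transgenic libraries. *Gfap*, of astrocytes, rose by 4.32 ± 0.76 and 2.81 ± 0.69 (FDR 0.00564 and 0.0651) to 3.6 to 19.1 CPM, and *Cspg4*, of oligodendrocyte precursors and pericytes, by 5.7 ± 0.67 and 5.25 ± 0.67 (FDR 0.000185 and 0.000439) to 2.8 to 17.7 CPM, while the precursor markers *Pdgfra* and *Olig2* stayed at or under 0.54 CPM. Of 8 border-associated macrophage genes, 3 fell in 5xFAD (*Mrc1* by -1.2 ± 0.28, *Lyve1* by -1.28 ± 0.3 and *F13a1* by -1.46 ± 0.39) and *Mrc1* fell in *Card9*-/-5xFAD by -1.28 ± 0.28, and *Pecam1*, of endothelial cells, fell in 5xFAD by -1.55 ± 0.34 (FDR 0.031). With the block within each *Card9* genotype, *Lyve1* (FDR 0.0265), *F13a1* (FDR 0.00675) and *Pecam1* (FDR 0.0183) also fell in *Card9*-/-5xFAD, and 5 of the 8 border-associated macrophage genes fell in each contrast, against 3 in each without the 4 libraries that stand apart. The part of these cells in the levels of *Baiap2l2*, *Actr3b* and *Chst2* was not tested.

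The genes within 500 kb of each locus were examined, and none of 3 tested neighbours of *Actr3b* (log2 changes -0.55 to -0.03 over both contrasts) and none of 4 of *Chst2* (-0.57 to 0.56) passed. Of 34 tested neighbours of *Baiap2l2*, only *Slc16a8* passed. It encodes a lactate transporter best known from the retinal pigment epithelium, it lies on the same strand, 3434 bases beyond the 3' end of *Baiap2l2*, at chr15:79251014-79254761, and it is named because its values were seen. It rose by 2.5 ± 0.68 (FDR 0.0967) and 3.0 ± 0.74 (FDR 0.0661), while the 34 neighbours had medians of -0.03 and -0.06. Its reads were few, with 5, 17, 4 and 0 in WT, 3, 5, 4 and 2 in *Card9*-/-, 25, 36, 23 and 24 in the 5xFAD libraries, and 31, 28, 16 and 2 in those of *Card9*-/-5xFAD. Its highest level without the transgenes, 1.45 CPM in WT replicate 2, lay above that of *Card9*-/-5xFAD replicate 4, at 0.801 CPM. *Slc16a8* also passed the filter on low counts only through the transgenic libraries.

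Genes with the profile most like each of the 3 were found by the root mean square difference of log2 CPM, each gene centred on its own mean over the 16 libraries. The differences are a description, since all such genes share the rise with the transgenes. Nearest to *Baiap2l2* were *Cst7* (0.56), *Mamdc2* (0.77), *Fabp3* (0.91), *Gpnmb* (0.94) and *Actr3b* (1.07), where the median gene was 3.54 away. *Cst7* followed it at a level of 1620 to 4420 CPM in the transgenic libraries. Nearest to *Actr3b* were *Trpm1* (0.58), *Lgi2* (0.67), *Tmem163* (0.7), *Lpl* (0.75) and *Mamdc2* (0.77), against a median of 2.82. Nearest to *Chst2* were *Tmem163* (0.52), *Yipf7* (0.54), *Lpl* and *Itgax* (0.57 each) and *Ctnna3* (0.62), against 2.49. *Yipf7* and *Ctnna3* were at only 2.85 to 7.43 and 2.0 to 10.5 CPM in the transgenic libraries. Their fitted rises in 5xFAD (8.51 and 6.41) exceeded that of *Chst2* (4.57), so likeness by this measure does not mean an equal rise. *Itgax* (CD11c) and *Lpl*, the lipoprotein lipase, are well known DAM genes, as are *Cst7* and *Gpnmb*. *Chst2* ranked 9 and 7 in likeness to *Baiap2l2* and *Actr3b*, while *Baiap2l2* ranked 27 for *Actr3b* and 54 for *Chst2*, and *Actr3b* ranked 17 for *Chst2*. Of the 5 nearest genes, 1, 3 and 2 were shared with a ranking by Pearson r for *Baiap2l2*, *Actr3b* and *Chst2*, and 2, 1 and 2 with a prior count of 0.5, so the order of the neighbours is not firm.

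Whether the 3 genes vary together among mice with the transgenes does not follow from their choice, and was asked over the 8 transgenic libraries. No relation passed. *Baiap2l2* and *Actr3b* had a Pearson r of 0.558 (exact permutation p = 0.144, adjusted 0.334 over 6 relations) and a Spearman rho of 0.667 (p = 0.083, adjusted 0.499). This r was 0.409 without the 2 libraries farthest from the median of *Actr3b*, the gene on the x axis. *Baiap2l2* and *Chst2* had r of 0.544 (exact permutation p = 0.167, adjusted 0.334) and rho of 0.238 (p = 0.582, adjusted 0.699). Here *Chst2* was on the x axis, and its 2 farthest libraries were *Card9*-/-5xFAD replicates 3 and 4. Without them r became -0.592, so it rested on them. *Actr3b* and *Chst2* had r of 0.333 (exact permutation p = 0.418, adjusted 0.502) and rho of 0.119 (p = 0.793, adjusted 0.793). Without the same 2 libraries, again the farthest for *Chst2*, r was 0.115. Against the mean log2 CPM of the DAM list, r was 0.665 for *Baiap2l2* (exact permutation p = 0.08, adjusted 0.334; rho 0.333, p = 0.428, adjusted 0.642), -0.219 for *Actr3b* (exact permutation p = 0.626, adjusted 0.626; rho -0.429, p = 0.299, adjusted 0.642) and 0.488 for *Chst2* (exact permutation p = 0.224, adjusted 0.336; rho 0.357, p = 0.389, adjusted 0.642). Without the 2 libraries farthest from the median of the DAM mean, which was on the x axis, these became 0.147, -0.567 and -0.413. Without *Card9*-/-5xFAD replicate 4 alone, r with the DAM mean was 0.014 for *Baiap2l2* and -0.677 for *Actr3b*. Without the libraries that stand apart, which leaves 6 libraries, r was 0.559 for *Baiap2l2* and *Actr3b*, 0.193 for *Baiap2l2* and *Chst2* and 0.635 for *Actr3b* and *Chst2*, and with the DAM mean 0.095 for *Baiap2l2*, -0.725 for *Actr3b* and -0.356 for *Chst2*, none of which passed. After the mean of each genotype was taken off, *Baiap2l2* and *Actr3b* had r of 0.793 (adjusted exact permutation p = 0.229).

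**Figure D5:**
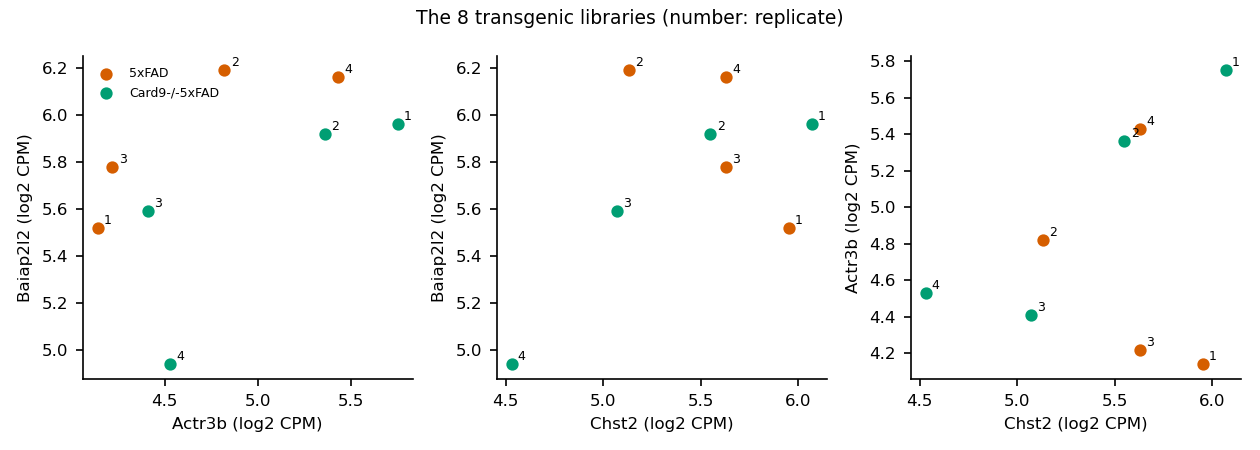
Log2 CPM (prior count 2) of each pair among *Baiap2l2*, *Actr3b* and *Chst2* in the 4 5xFAD and 4 *Card9*-/-5xFAD libraries, labelled by replicate number. *Card9*-/-5xFAD replicate 4 lies lowest for *Baiap2l2* (4.94) and *Chst2* (4.53), and the Pearson r of 0.558, 0.544 and 0.333 did not pass.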

How the data were processed

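CD11b+ brain cells of 16 libraries, 4 of each of 4 genotypes, were sequenced as RNA. The authors aligned reads to mm10 with HISAT2, filtered them with Samtools, counted them per gene with HTSeq and deposited raw counts. The strand setting, tool versions and annotation of the counting are not given in the sources used here.

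The counts were fitted in R 4.3.3 with edgeR 4.0.16 (quasi-likelihood, TMM, filterByExpr with a minimum count of 10) over all 16 libraries and 4 groups, with Benjamini-Hochberg adjustment over 14513 genes and a threshold of 0.1. The SE and 95% intervals were taken from the change and its p. The script was tested on simulated data. DESeq2 1.42.0 served as an alternative. Log2 CPM used a prior count of 2. Positions came from GENCODE M21, matched by symbol for 48481 of 55385 symbols, and the promoter from RefSeq. Permutations and correlations used SciPy. Intervals on reads cover counting error only.

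The genes named were the 3 chosen, all measured I-BAR and Arp2/3 complex genes, sulfotransferases that passed with the transgenes or are *Chst1*, *Chst4*, *Chst5* or *Chst7*, up to 4 called genes per direction of each other list, and the 5 nearest profiles. The genes and lists were chosen with earlier results of these data known. The lists were written from general knowledge. Same-numbered libraries deviated together within each *Card9* genotype (r = 0.2748 to 0.7084 between 5xFAD and WT, and 0.1275 to 0.7341 between *Card9*-/-5xFAD and *Card9*-/-), so a fit with those pairs as a block was added after the data were seen, as were fits without the 2 shallowest libraries and without the 4 that stand apart. The labels do not say what the replicate numbers share. The largest r of each genotype (0.7084 and 0.7341) joined libraries that both stand apart. 5xFAD replicate 2 and *Card9*-/-5xFAD replicate 1 deviated most like a library of another number. Calls under that block rest on this choice.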

Additional observations from a re-analysis of the deposited data

Results flagged for a closer look

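In all, 6 values lay far from the other 3 libraries of their group by Dixon's test, where 75 groups were tested and chance gives about 1 in 20. None belonged to *Baiap2l2*, *Actr3b* or *Chst2*. *Mtss1*, the I-BAR gene that fell, was highest of its group in 5xFAD replicate 1 (54.4 CPM) and in *Card9*-/-5xFAD replicate 4 (66.1 CPM). *Chst1* reached 43.9 CPM in 5xFAD replicate 4 and *Sulf2* 82.4 CPM in the same library. *Chst7* stood at 20.3 CPM in 5xFAD replicate 1, below the other 3, and *Wipf3* at 1.31 CPM in *Card9*-/- replicate 4, from the 4 reads that are all of its reads in that group.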

How the results depend on the processing

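*Baiap2l2*, *Actr3b* and *Chst2* stayed uncalled in the *Card9* contrasts and the interaction under every alternative run, and their rises with the transgenes kept their direction. The cause of the changes below was not tested.

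For *Card9*-/-5xFAD against 5xFAD, 0 genes passed, against 1 with no filter on low counts, 2 by DESeq2 on all libraries and 9 by DESeq2 on the 8 compared (0 to 1 when 1 library was left out). For *Card9*-/- against WT the counts were 0, 2, 5 and 8 (0 to 1), and for the interaction 0 and, by DESeq2 on all libraries, 1 (0 to 1). For 5xFAD against WT, 304 became 565 by DESeq2 on all libraries, 669 by DESeq2 on 8, 582 without both shallowest libraries and 1144 without the 4 that stand apart (164 without WT replicate 4 to 386 without *Card9*-/- replicate 4). For *Card9*-/-5xFAD against *Card9*-/-, 286 became 185 with no filter, 812 by DESeq2 on all libraries, 96 by edgeR on 8, 433 by DESeq2 on 8, 519 without both shallowest and 2394 without the 4 that stand apart (120 without *Card9*-/- replicate 2 to 720 without *Card9*-/- replicate 4). With the replicate number as a block within each *Card9* genotype, the counts were 2322 and 2966. With 1 block per number over all 4 groups they were 306 and 340, and 0 in the *Card9* contrasts. In those contrasts the deviations of same-numbered libraries had r of 0.1183 to 0.488 in replicates 2 and 3, and of -0.637 to -0.5123 in replicates 1 and 4.

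The interaction of *Actr3b* turned to 0.23 without both shallowest libraries and 0.13 without the 4, and its range on leaving out 1 library was -0.55 to 0.2. *Chst2* in *Card9*-/-5xFAD against 5xFAD turned to 0.01 and 0.13 (-0.51 to 0.01). *Baiap2* in *Card9*-/-5xFAD turned to 0.01 to 0.02 with DESeq2 size factors, DESeq2 and without either set of libraries. *Baiap2l1* in 5xFAD turned to 0.09 with DESeq2 size factors and by DESeq2, 0.05 with no filter, 0.06 and 0.07 with the blocks, 0.16 by edgeR on 8, 0.01 without both shallowest and 0.13 without the 4. *Chst1* in *Card9*-/-5xFAD turned to -0.15 with the block within genotype. The r of *Actr3b* with the DAM mean turned to 0.025 in residuals from the genotype means, and that of *Chst2* to -0.356 without the libraries that stand apart. On leaving out 1 library, *Baiap2l2* in *Card9*-/-5xFAD against *Card9*-/- ran from 7.7 to 8.66, its r with *Chst2* from -0.12 (without *Card9*-/-5xFAD replicate 4) to 0.742, and the r of *Chst2* with the DAM mean from -0.273 (without the same library) to 0.653. With the DAM mean, r of *Baiap2l2* ran from 0.014 (without that library) to 0.745 and r of *Actr3b* from -0.677 to -0.028. Values that crossed or met 0 were those of *Actr3* (-0.49 to 0.04 in 5xFAD, -0.39 to 0.2 in *Card9*-/-5xFAD), *Chst1* (-0.39 to 0.77 and -0.32 to 0.59), *Baiap2l1* in 5xFAD (-0.25 to 0.4), and *Baiap2* and *Actr2* in *Card9*-/-5xFAD (-0.3 to 0.16 and 0.0 to 0.28). Depth limits the levels without transgenes, which rest on 0 to 10 reads a library for *Baiap2l2* and *Actr3b*.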
